A study of Homo sapiens with 8 samples.

Results

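C/D small nucleolar RNAs (snoRNAs) encoded inside protein-coding genes without a ribosomal protein or translation factor name were followed through the crosslink sites of dyskerin and GAR1 in nuclei of U2OS cells. They were chosen by annotation alone. A member is a GENCODE 44 snoRNA gene with a numbered SNORD name that lies wholly within a protein-coding gene on the same strand. None of its hosts is TPT1 or has a name beginning with RPL, RPS, EIF or EEF, and the processing snoRNAs SNORD3, SNORD13 and SNORD118 as well as SNORD5 and SNORD6 were left out. Host genes with these names are called translation genes below, by name and not by function. This gave 75 of the 313 annotated SNORD genes and of the 527 SNORD and SNORA genes together, among 62700 genes. SNORD13E in DENND4A and SNORD13P3 in KIF9 carry names of their own and were kept. SNORD50B also lies within the non-coding gene SNHG5, and SNORD64, SNORD107 and SNORD108 within the non-coding gene SNHG14. They count as members here and not among the C/D snoRNAs of lncRNA genes.

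C/D snoRNAs guide 2′-O-methylation of ribosomal and small nuclear RNA. They are named after box C near the 5′ end and box D near the 3′ end, which fold together into a kink-turn that binds SNU13, NOP56, NOP58 and the methyltransferase fibrillarin. Most are released from a spliced host intron by trimming of both ends. Dyskerin, the pseudouridine synthase, and GAR1 belong to the other large family, the H/ACA particles, so C/D snoRNAs are not the RNAs with which these proteins are known to assemble.

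U2OS is a human osteosarcoma cell line. In iCLIP, cells are irradiated with ultraviolet light, the protein is precipitated with its crosslinked RNA fragments, and a cDNA that stops at the crosslink marks 1 nucleotide. Nuclear fractions were precipitated with a dyskerin antibody, with a GAR1 antibody, or with mouse IgG in a control set labelled for each, 2 replicates in each of 4 groups. No group carried a genetic change or a drug treatment. The GAR1 antibody was raised in rabbit, so the mouse IgG was not matched to it in species. The labels number the replicates without saying that they were separate cultures, so p-values measure how these samples vary, which may be only technical variation. Of the 6 mesenchymal and bone markers examined, 5 were present in both dyskerin libraries, with VIM at 475 and 750 cDNAs and COL1A1 at 977 and 1741, while COL1A2 was at 0. The blood, epithelial and liver markers were at 0 in all libraries, except CDH1 with 5 cDNAs in the second GAR1 library.

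The deposited values are cDNA counts at single nucleotides that passed the site call in their own library. They summed to between 585454 and 1976518 cDNAs in the antibody libraries. The first IgG libraries held 146514 cDNAs for the dyskerin set and 295255 for the GAR1 set. The second IgG libraries held only 8183 and 10701 and contribute little below. These sums are what passed the call and not the sequencing depth. A level below is in CPM, the cDNAs of a snoRNA scaled to 1000000 peak cDNAs in the library, and includes sites up to 5 nt upstream of the annotated body.

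Of the 75 members, 51 lay in introns only, 19 overlapped an exon of a non-coding transcript of the host and 5 overlapped a coding exon or an untranslated region. They were annotated in 48 host genes or overlapping host pairs. Members that the results turn on are shown first, since their crosslinks fell at fixed distances from box C. Each run starts 10 bases upstream of the annotated body and is read from GRCh38, while the coordinates are those of the body. From left to right, capitals mark the strongest called position before box C, box C itself, the strongest called position after box C, and box D.
SNORD20, host NCL, chr2:231456444-231456523 (- strand): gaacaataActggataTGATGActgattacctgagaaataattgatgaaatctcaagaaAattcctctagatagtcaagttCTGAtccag
SNORD57, host NOP56, chr20:2656939-2657010 (+ strand): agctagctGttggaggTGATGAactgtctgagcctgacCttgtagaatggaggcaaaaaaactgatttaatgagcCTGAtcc
SNORD14E, host HSPA8, chr11:123058077-123058161 (- strand): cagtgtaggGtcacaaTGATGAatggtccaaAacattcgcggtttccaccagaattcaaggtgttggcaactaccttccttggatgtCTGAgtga
SNORD82, host NCL, chr2:231460371-231460440 (- strand): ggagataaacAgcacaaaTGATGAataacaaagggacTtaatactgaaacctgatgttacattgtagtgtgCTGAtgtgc
SNORD56, host NOP56, chr20:2656624-2656694 (+ strand): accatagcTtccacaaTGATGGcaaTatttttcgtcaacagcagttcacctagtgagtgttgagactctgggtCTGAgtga
SNORD63, host HSPA9, chr5:138561043-138561110 (- strand): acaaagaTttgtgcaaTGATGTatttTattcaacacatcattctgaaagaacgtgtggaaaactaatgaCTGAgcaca
SNORD110, host NOP56, chr20:2654212-2654286 (+ strand): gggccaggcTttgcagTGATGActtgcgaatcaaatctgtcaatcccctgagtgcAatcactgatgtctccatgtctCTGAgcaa
SNORD11B, host NOP58, chr2:202291332-202291421 (+ strand): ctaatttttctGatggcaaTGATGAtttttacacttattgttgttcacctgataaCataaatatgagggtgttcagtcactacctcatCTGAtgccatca
Box C was taken as the best match to TGATGA within the first 40 nt of the printed strand and box D as the best match to CTGA within the last 20 nt. SNORD56 has TGATGG and SNORD63 has TGATGT, each with 1 mismatch. Paralogs that share a host gene were marked in the same way, and 5 of them are shown.
SNORD45A, host RABGGTB, chr1:75787889-75787972 (+ strand): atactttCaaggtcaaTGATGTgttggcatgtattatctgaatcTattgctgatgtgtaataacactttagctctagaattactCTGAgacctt
SNORD45B, host RABGGTB, chr1:75789477-75789548 (+ strand): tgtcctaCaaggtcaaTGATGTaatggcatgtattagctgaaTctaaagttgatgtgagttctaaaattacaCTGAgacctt
SNORD45C, host RABGGTB, chr1:75787072-75787150 (+ strand): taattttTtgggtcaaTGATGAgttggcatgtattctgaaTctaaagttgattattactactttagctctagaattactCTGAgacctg
SNORD121A, host UBAP2, chr9:33952769-33952850 (- strand): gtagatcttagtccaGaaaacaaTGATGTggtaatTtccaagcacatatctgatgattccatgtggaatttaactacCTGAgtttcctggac
SNORD121B, host UBAP2, chr9:33934296-33934376 (- strand): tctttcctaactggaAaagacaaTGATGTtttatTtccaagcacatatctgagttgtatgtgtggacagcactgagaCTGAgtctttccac

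Crosslinks were found in 60 of the 75 members, and 56 had cDNAs in all 4 antibody libraries. The 15 others had none in any library, and only 7 members had cDNAs in all 8. The members together held 12977 and 12186 cDNAs in dyskerin, and 13377 and 47749 in GAR1. The first IgG library of the dyskerin set held 972 and that of the GAR1 set 5269, while the second IgG libraries held 50 and 72. The signal was spread over many RNAs, since the 10 strongest members took 48.8% and 50.2% of the member cDNAs in dyskerin and 50.1% and 46.5% in GAR1.

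As a share of all peak cDNAs, the members took 0.766% (95% Wilson interval 0.753 to 0.779) and 0.650% (0.638 to 0.661) in dyskerin. They took 2.28% (2.25 to 2.32) and 2.42% (2.39 to 2.44) in GAR1. The IgG libraries of the dyskerin set gave 0.663% (0.623 to 0.706) and 0.611% (0.464 to 0.805). The GAR1 IgG libraries gave 1.78% (1.74 to 1.83) and 0.673% (0.535 to 0.846). The intervals are for counting error only. The first dyskerin IgG library lay between the dyskerin replicates, and both GAR1 libraries lay above both of their controls. Over the 4 antibody and the 4 IgG libraries the means differed by 0.596 percentage points, which did not pass an exact two-sided permutation test (p = 0.229).

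**Figure D1:**
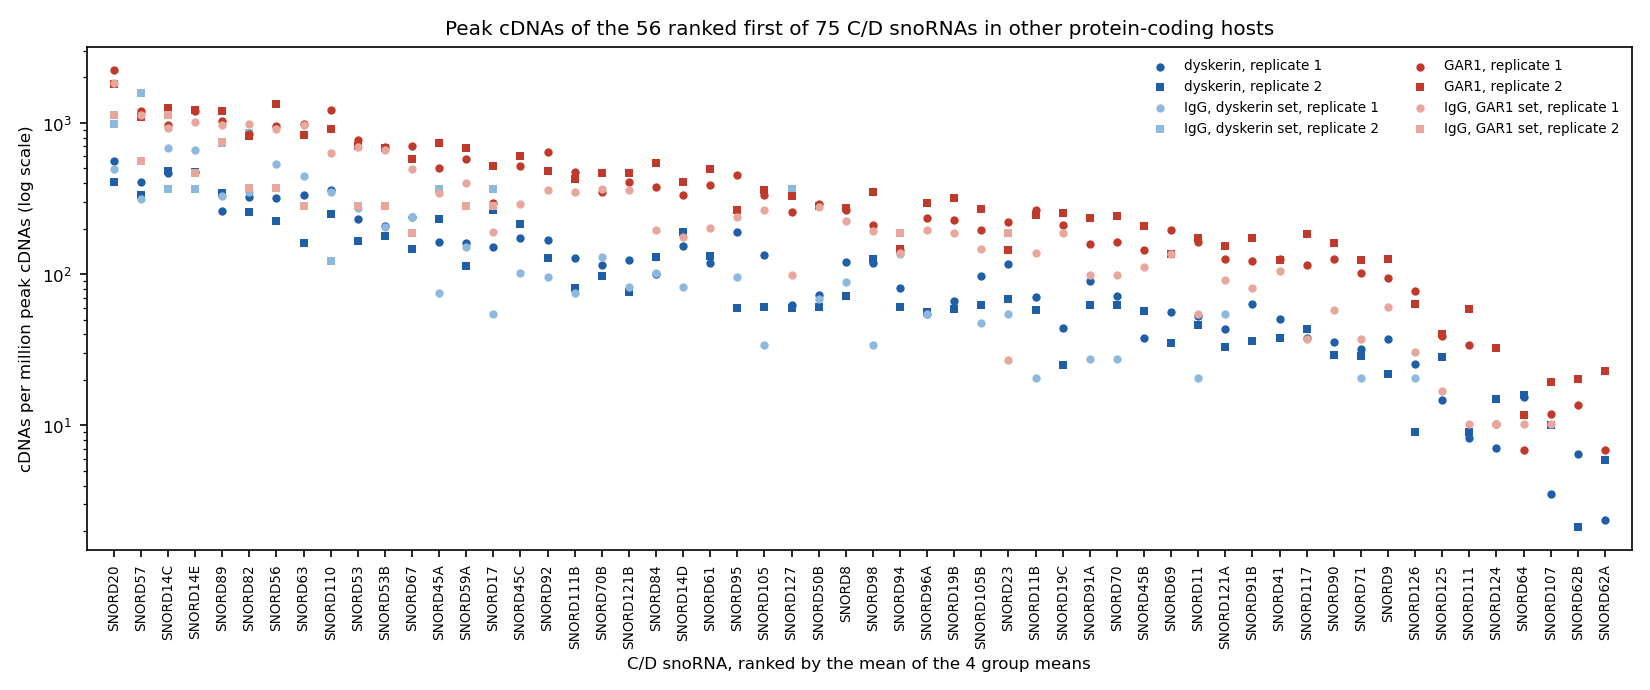
Level of each of the 56 members with cDNAs in all 4 antibody libraries, in CPM on a log axis, ordered by mean level, with 1 point per library. Dyskerin is blue, GAR1 red and IgG pale, circles are replicate 1 and squares replicate 2, and libraries at 0 are not drawn. The GAR1 points lie above the dyskerin points for 54 of the 56.

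The highest levels were those of SNORD20, encoded in NCL, the gene of nucleolin. SNORD20 reached 561 and 405 CPM in dyskerin, 2244 and 1822 in GAR1, 498 and 978 in the dyskerin IgG set, and 1842 and 1121 in the GAR1 IgG set. The first GAR1 library was the highest of the 8, but the second lay below the first GAR1 IgG library. The dyskerin libraries did not separate from their IgG either, which held 73 and 8 cDNAs. SNORD82, from the same host gene, was at 323 and 256 CPM in dyskerin and at 851 and 819 in GAR1. Its IgG libraries were at 348 and 855 CPM in the dyskerin set and at 989 and 374 in the GAR1 set, so neither protein lay above its own controls for SNORD82.

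NOP56, whose protein is itself a core component of C/D particles, carries SNORD57, SNORD56 and SNORD110. SNORD57 was at 407 and 332 CPM in dyskerin, 1192 and 1097 in GAR1, 314 and 1589 in the dyskerin IgG set and 1131 and 561 in the GAR1 IgG set. The 1589 CPM came from 13 cDNAs in a library of 8183. SNORD56 was at 317 and 225 CPM in dyskerin and 951 and 1341 in GAR1, against 539 and 0 in the dyskerin IgG set and 908 and 374 in the GAR1 IgG set. SNORD110 was at 360 and 248 CPM in dyskerin and 1226 and 911 in GAR1, and its GAR1 IgG libraries were lower, at 633 and 0. The mean levels of the 3 RNAs lay close together, from 271 to 369 CPM in dyskerin and from 1069 to 1146 in GAR1. SNORD86, a further C/D snoRNA of the same gene, had 1 cDNA in all 8 libraries.

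HSPA8, the gene of a constitutive HSP70 chaperone, carries SNORD14C, SNORD14D and SNORD14E. SNORD14C was at 465 and 480 CPM in dyskerin, 975 and 1263 in GAR1, 683 and 367 in the dyskerin IgG set and 931 and 1121 in the GAR1 IgG set. SNORD14E was at 477 in both dyskerin libraries, at 1208 and 1215 in GAR1, and at 662 and 367 in the dyskerin IgG set. Both RNAs overlapped their IgG in dyskerin. In the GAR1 set SNORD14E lay above its IgG, at 1009 and 467 CPM. SNORD14D was the weakest of the 3, with mean levels of 171 CPM in dyskerin and 369 in GAR1, so that members of this gene spread over 2.78 and 3.28-fold.

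Members of the other host genes with at least 3 expressed members also varied. The SNORD45 RNAs of RABGGTB, a subunit of the enzyme that prenylates Rab proteins, ranged from 47.4 to 197 CPM in dyskerin and from 177 to 620 in GAR1. SNORD11, SNORD11B, SNORD70 and SNORD70B of NOP58, another core C/D protein gene, ranged from 49.8 to 106 CPM in dyskerin and from 169 to 410 in GAR1. SNORD53, SNORD53B and SNORD92 of WDR43, a ribosome biogenesis factor, lay within 1.33-fold of each other in dyskerin and 1.32-fold in GAR1. SNORD19B, SNORD19C and SNORD69 of GNL3, the gene of nucleostemin, ranged from 34.7 to 62.4 CPM in dyskerin and from 166 to 273 in GAR1. They were at 0 in both dyskerin IgG libraries, as were 17 of the 56 members with cDNAs in all antibody libraries. In the first GAR1 IgG library they were at 186, 186 and 135 CPM. SNORDs of 1 host gene come from 1 primary transcript, but these levels reflect crosslinking as well as RNA abundance, which cannot be told apart here.

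Beside these, SNORD89 of the ubiquitin ligase gene RNF149 was at 262 and 342 CPM in dyskerin and 1032 and 1194 in GAR1. The IgG libraries of SNORD89 were at 328 and 733 CPM in the dyskerin set and at 965 and 748 in the GAR1 set. SNORD63 of HSPA9, a mitochondrial chaperone gene, was at 332 and 160 CPM in dyskerin and 982 and 837 in GAR1. Its first IgG libraries were at 444 and 965 CPM and its second at 0 and 280. SNORD67 of CKAP5, a microtubule assembly gene, had a mean of 638 CPM in GAR1 and 193 in dyskerin. In IgG SNORD67 was at 494 and 187 CPM in the GAR1 set and at 239 and 0 in the dyskerin set.

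Whether the members exceeded their own controls was tested with edgeR, on the counts of all genes that reached 10 counts in 2 or more libraries. Of the 60 members with cDNAs, 56 were among the 6402 genes tested. In dyskerin against IgG no member passed at an adjusted p under 0.05, and neither did any of the other genes (0%). At an unadjusted p under 0.05 the numbers were 1 member and 1432 genes, and DESeq2 also called 0 of both. The median log2 fold change of the members was 1.12, against 2.00 over all genes tested. In GAR1 against IgG edgeR called 0 members and 0 genes (0%). Here 35 members and 1009 genes had an unadjusted p under 0.05, the median log2 fold change of the members was 5.21 against 0.00 over all genes, and the lowest adjusted p of a member was 0.273. DESeq2 called 0 members here, with 13 genes lower and 70 higher. The size of this fold change depends on the scaling. The median over the members was 0.99 in DESeq2 and 1.06 in edgeR with scaling to the total of peak cDNAs, each against 0 over all genes. At an unadjusted p under 0.05 there were then 0 members and 372 genes in DESeq2, and 2 members and 515 genes in edgeR. With the first GAR1 library left out, edgeR called 7 of 56 members and 717 of 6372 genes higher, which are similar shares. Calls against IgG rest on 2 control libraries that differed from each other many-fold in cDNAs.

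In CPM, both GAR1 libraries lay above both of their IgG libraries for 46 of the 56 members, where 10.5% of all genes tested did so. Both dyskerin libraries lay above both of theirs for 31 members, where 70.3% of all genes did. The difference of the antibody effects, GAR1 over its IgG against dyskerin over its IgG, was called by edgeR for 0 of 56 members, with 1 at an unadjusted p under 0.05 and a lowest adjusted p of 0.683.

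The comparison of the antibodies with each other gave calls. In CPM, both GAR1 libraries were above both dyskerin libraries for 54 of the 56 members (6.36% of all genes tested), and 1 member went the other way (91.5% of all genes tested). That exception was SNORD64 at the imprinted SNURF-SNRPN locus, annotated within ENSG00000214265, with 15.3 and 16 CPM in dyskerin and 6.83 and 11.6 in GAR1. These were few cDNAs, 26 and 30 against 4 and 23. The ratio of the mean levels, GAR1 over dyskerin, had a median of 3.59 and quartiles of 2.87 and 3.96, with 49 of 56 members between 2 and 5. The highest ratio, 6.70, was that of SNORD19C, at 44.3 and 25.1 CPM in dyskerin and 212 and 253 in GAR1.

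edgeR called 17 members lower in dyskerin than in GAR1 and 0 higher, at an adjusted p under 0.05, when 4.36% of the genes tested were called lower and 37.2% higher. The median log2 fold change, dyskerin over GAR1, was −5.47 over the members tested and 5.54 over all genes. Among those called, SNORD59A of ATP5F1B, which encodes a subunit of ATP synthase, had −5.93 (SE 2.33). SNORD56 had −5.87 (SE 2.03), SNORD121B of UBAP2 −5.81 (SE 2.50) and SNORD84 of DDX39B −5.78 (SE 2.44). SNORD62A and SNORD62B of PRRC2B had −5.82 (SE 2.46) and −5.71 (SE 2.41), but the sequences of this pair are identical, so that their reads cannot be assigned to either copy. Both are counted among the 17 and rest on few cDNAs. SNORD62A had 4 and 11 in dyskerin and 4 and 45 in GAR1, and SNORD62B 11 and 4 in dyskerin and 8 and 40 in GAR1. The adjusted p-values of the members named here ran from 0.0491 to 0.0497 in edgeR, just inside the threshold, and that of SNORD67 was 0.0503. The 11 strongest members, down to SNORD53B, were all among the 17.

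These fold changes depend on how the libraries are scaled. The TMM factors were 0.303 and 0.0714 for the GAR1 libraries and 1.45 and 1.44 for dyskerin. With scaling to the total of peak cDNAs the median over the members was −1.85 and edgeR called 7 of 56 lower, against a median of 6.56 over all genes, of which 174 of 6402 were called lower and 5801 higher. Those 7 were weaker members, among them SNORD111 of the splicing factor gene SF3B3, at 8.26 and 9.06 CPM in dyskerin and 34.2 and 59.2 in GAR1. With the size factors of DESeq2 the median over the members was 0.27, so that the direction in absolute terms flips with the scaling. DESeq2 called none of the members, and of all 6402 genes 0 lower and 3605 higher. Under each of the 3 scalings the median of the members was below that of all genes, which was 8.58 in DESeq2. The number of members called lower by edgeR also moved with single libraries, to 0 without either dyskerin library, 7 without the first and 1 without the second GAR1 library, and 27 and 38 without the first and the second dyskerin IgG library. Over all genes the same fits called lower 18 of 2147 and 18 of 2131 without the first and the second dyskerin library, 283 of 6372 and 53 of 6318 without the GAR1 libraries, and 308 and 343 of 6401 without the dyskerin IgG libraries. The difference is one of the composition of the peak cDNAs and carries no absolute amount.

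**Figure D2:**
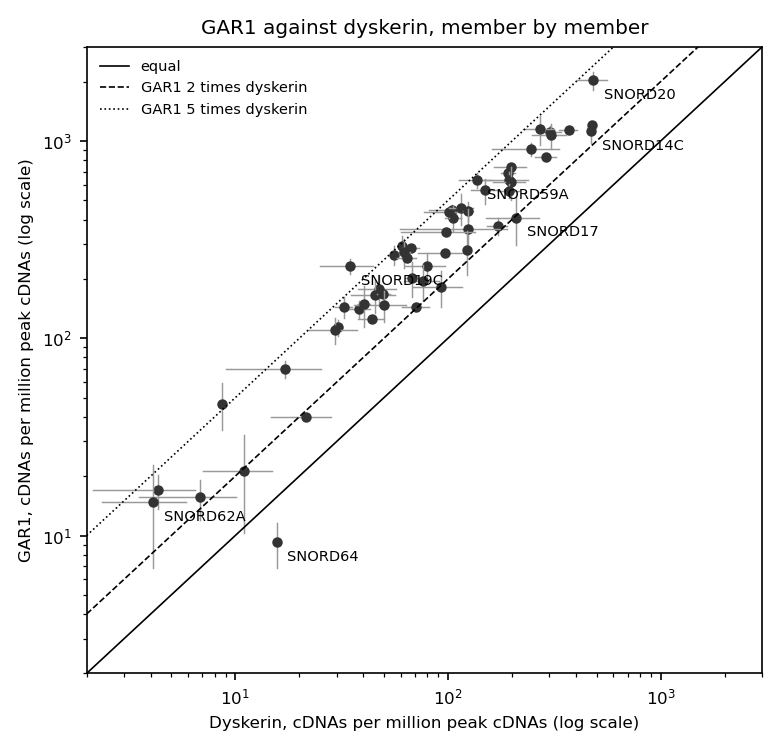
Mean level of each member in GAR1 against that in dyskerin, in CPM on log axes, with lines from each point to the values of the 2 replicates and diagonals for equal levels and for 2-fold and 5-fold more in GAR1. Most members lie between the 2-fold and the 5-fold diagonal, and SNORD64 lies below the line of equal levels.

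The crosslinks had a fixed place relative to box C. In all 49 members with at least 20 cDNAs in every antibody library, the strongest position before box C lay between 9 and 6 nt upstream of it. It was at 8 nt in 28 members, at 7 nt in 12, at 9 nt in 7 and at 6 nt in 2. In SNORD20 it is the A at the 8 nt distance, marked in the sequence printed above. In most of these members the position lies at or near the annotated 5′ end of the mature RNA. It lies further inside where box C starts later, at nt 37 of the annotated body in SNORD91B, 24 in SNORD90 and 19 in SNORD125. Whether the cDNAs there stopped at a crosslink or at the end of the RNA was not tested.

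The window from 9 to 6 nt before box C held 38.0% and 43.7% of the member cDNAs in dyskerin, and 40.7% and 44.1% in GAR1. In the IgG libraries it held 56.8% and 62% in the dyskerin set and 54.2% and 59.7% in the GAR1 set. All 4 IgG libraries were above all 4 antibody libraries. The stretch from 6 to 25 nt after the start of box C held 33.9% and 31.1% in dyskerin and 30.1% and 33% in GAR1, and 31.4% and 30.9% in the first IgG libraries. From box D on there were no called cDNAs in any library. Reads were trimmed to a minimum of 10 nt before alignment and a cDNA starting at box D would be very short, but the part of this in the empty 3′ end was not tested.

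**Figure D3:**
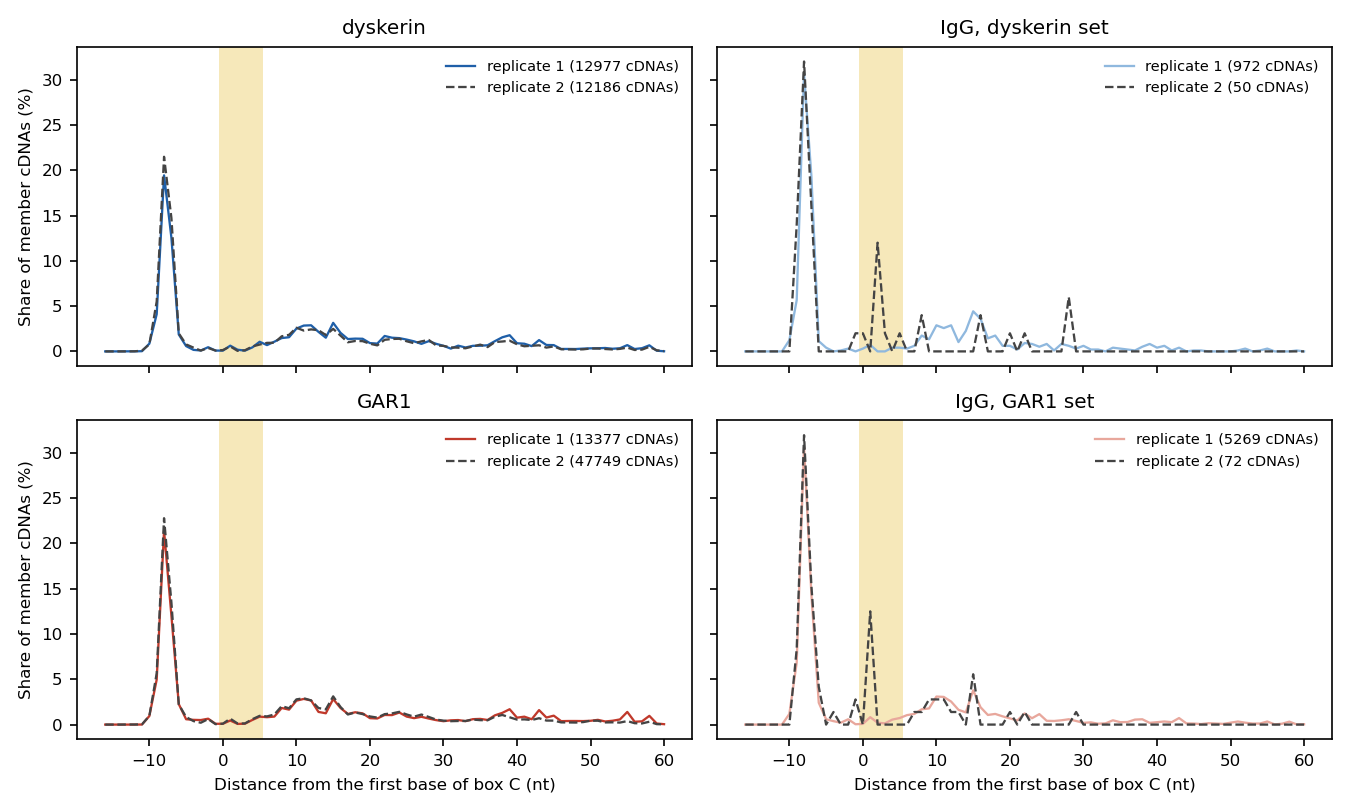
Share of member cDNAs, in percent, by distance of the called position from the start of box C in nt, in 1 panel per group with 1 line per replicate and box C shaded. Every group has its highest point 8 nt before box C, where the antibody libraries have 19.4% to 22.8% of their cDNAs and the IgG libraries 30.7% to 32.0%.

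Beyond this common position each RNA had a pattern of its own, which recurred between libraries. Of the 33 members with at least 100 cDNAs in every antibody library, 21 had the same strongest nucleotide in all 4, and 24 had it within 1 nt. It lay upstream of box C in all 4 libraries for 23 members and from box C on in all 4 for 5, namely SNORD63, SNORD45C, SNORD121B, SNORD84 and SNORD95. The strongest nucleotide was also that of a GAR1 library in the first GAR1 IgG library for 27 of 32 members, and that of a dyskerin library in the first dyskerin IgG library for 11 of 13. Positions called in both dyskerin replicates held 94.4% and 94.2% of the member cDNAs of those libraries, and positions called in both GAR1 replicates 97.7% and 94.8%.

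In SNORD57 a single nucleotide carried much of the signal, with 55.2% and 60.6% of its cDNAs in dyskerin, 59.9% and 56.4% in GAR1 and 91.3% and 71.0% in the first dyskerin and GAR1 IgG libraries. SNORD20 had 39.9% and 48.9% in dyskerin and 37.3% and 40.2% in GAR1 at its strongest nucleotide. SNORD63 differed, with only 12.3% and 14.6% in dyskerin and 13.6% and 19.9% in GAR1 in the window from 5 nt upstream to 5 nt inside the annotated start. The T that is capitalised 10 nt after the start of box C held 11.7% and 18.3% of its cDNAs in dyskerin and 16.9% and 14.9% in GAR1. It was the strongest nucleotide in 3 of the 4 antibody libraries, and in the first dyskerin library a T 12 nt after the start of box C held more, 14.6%.

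**Figure D4:**
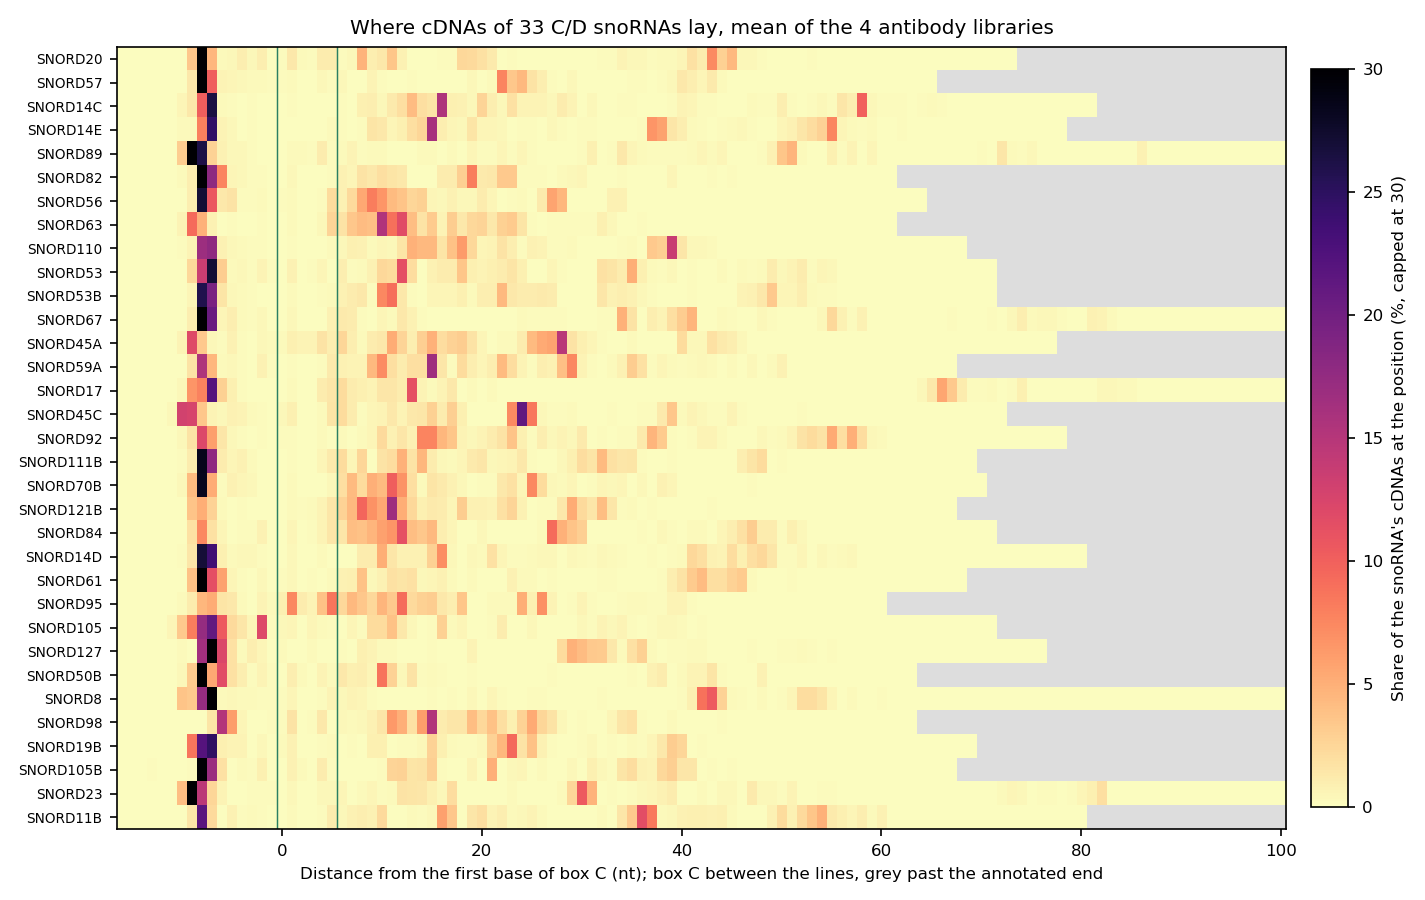
Heat map of the share of cDNAs at each distance from the start of box C, in nt, for the 33 members with at least 100 cDNAs in every antibody library, with colour in percent of the cDNAs of a member and capped at 30%. A common band runs upstream of box C, and the further positions differ from member to member.

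The distance of the second position was compared between paralogs from the same host gene that each had at least 20 cDNAs in every antibody library, which leaves out the pairs SNORD111 and SNORD111B and SNORD62A and SNORD62B. Of 13 such pairs, with identities from 58.4% to 87.5%, the strongest position after box C differed by at most 1 nt in 8 and by at most 2 nt in 10. In the UBAP2 pair it lay 12 nt after the start of box C in SNORD121A and 11 nt after it in SNORD121B, in both within a run of bases that the printed sequences share. In RABGGTB it lay at 28, 26 and 24 nt in SNORD45A, SNORD45B and SNORD45C. SNORD14C, SNORD14D and SNORD14E of HSPA8 had it at 16, 16 and 15 nt. SNORD91A and SNORD91B of TSR1, a ribosome maturation factor gene, had it at 38 nt in both. The largest difference among the 13 pairs, 10 nt, was that between SNORD105 and SNORD105B of PPAN. Paralogs are related in sequence and can share reads with several alignments, so these pairs are not independent.

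The share of cDNAs past the midpoint of the RNA also varied among members. As a mean over the 4 antibody libraries it was lowest in SNORD56 with 1.97%, SNORD63 with 2.24% and SNORD82 with 2.80%. It was highest in SNORD11B with 44%, SNORD92 with 33.6% and SNORD14E with 33.5%, and the median over the 33 members was 10.9%. In SNORD11B the share was 50% and 30.6% in dyskerin and 57.4% and 38.1% in GAR1, against 26.8% in the first GAR1 IgG library. In SNORD14E it was 36.3% and 27.3% in dyskerin and 44.3% and 26.2% in GAR1, against 7.22% and 15.4% in the first dyskerin and GAR1 IgG libraries. In SNORD56 it was between 1.13% and 2.79% in the antibody libraries and 0% in both first IgG libraries. SNORD56 and SNORD57, neighbours in NOP56, thus both kept nearly all of their cDNAs in the 5′ part in the second replicates, where SNORD57 had 0.161% in dyskerin and 0.415% in GAR1 past the midpoint, but SNORD57 had 9.72% and 12.5% in the first.

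The antibody libraries differed from IgG in where along the members the cDNAs lay. Pooled over members, 36.5% and 43.3% of cDNAs in dyskerin and 39.8% and 42.2% in GAR1 were in the window at the 5′ end, against 55.9% and 62% in the dyskerin IgG set and 52.2% and 61.1% in the GAR1 IgG set. Past the midpoint lay 15.9% and 12.6% in dyskerin and 18.4% and 10.8% in GAR1, against 3.40% and 5.52% in the first IgG libraries. The second IgG libraries had 0 of 50 and 0 of 72 cDNAs there, which allows up to 6% and 4.17%. All antibody libraries were therefore below all IgG libraries at the 5′ end and above them past the midpoint.

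The test was set on means over members with at least 20 cDNAs in a library, which left 4 antibody libraries and the 2 first IgG libraries, so that the smallest p an exact permutation test allows is 0.133. The differences, antibody minus IgG, were −17.0 percentage points at the 5′ end and 9.49 past the midpoint, each with that smallest p in the exact permutation test and an adjusted p of 0.222 over 5 position measures. Without the first dyskerin IgG library the difference at the 5′ end was −8.67 points. On the pooled cDNAs of all 8 libraries they were −17.4 and 12.2 percentage points, both with an exact permutation p of 0.0286, the smallest 4 against 4 can give, and an adjusted p of 0.0357. At the positions called in the first GAR1 IgG library alone, an alternative added after the data were seen, the pooled differences were −16.5 and 6.85 points with an exact permutation adjusted p of 0.0476. That library had 52.2% and 5.52% there. The second dyskerin library was close to it, at 51.8% and 6.85%, and so was the second GAR1 library, at 48.1% and 6.47%. The first dyskerin and GAR1 libraries had 43.9% and 46.5% at the 5′ end and 9.52% and 11.9% past the midpoint. Much of the mean difference thus came from the second IgG libraries, at 73.8% and 70.5% at the 5′ end and 0% past the midpoint. IgG libraries also had fewer cDNAs per called site, 3.34 and 6.12 in the first of each set against 7.29 to 19.7 in the antibody libraries, and the part of depth in the site calls was not tested further.

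Member by member, the share past the midpoint was above that of the first dyskerin IgG library in both dyskerin replicates for 14 of the 14 members with at least 20 cDNAs in all 3 libraries. For GAR1 against its first IgG library this held for 35 of 42, and 2 were below in both replicates. SNORD89 is an example, with 17.8% and 15.6% in dyskerin, 13.6% and 17.2% in GAR1, and 0% and 9.12% in the first dyskerin and GAR1 IgG libraries. SNORD20 had 26.8% and 14.5% in dyskerin and 29.6% and 16.4% in GAR1, against 8.22% and 7.35%. At the 5′ end both dyskerin replicates were below IgG for 11 of 14 members and both GAR1 replicates for 32 of 42. SNORD110 was among the exceptions, with 30.7% and 42.7% in dyskerin against 29.4% in its first IgG library.

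Uridine was the crosslinked base of 31.7% and 33.2% of member cDNAs in dyskerin and 30.5% and 32.4% in GAR1, close to the 29.8% uridine of the bodies. The IgG libraries had 27.7% and 18.0% in the dyskerin set and 27.8% and 18.1% in the GAR1 set. The pooled difference was 9.07 percentage points (exact permutation p of 0.0286), and over the members with at least 20 cDNAs it was 6.43 points (exact permutation p of 0.133, adjusted 0.222). From box C on, uridine made up 37.7% and 44.3% in dyskerin and 37.2% and 40% in GAR1, and 34.5% and 37.6% in the first IgG libraries. The last 20 nt, which hold box D, had at most 0.561% of cDNAs in any library, and the difference over the members was 0.139 points (exact permutation p of 0.267).

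Set beside other snoRNA classes, the profile was largely that of C/D snoRNAs in general. The class comparison was added after the data were seen and paired the 8 libraries, with exact two-sided sign-flip tests adjusted over 6 comparisons. The share at the 5′ end was higher than in the 88 annotated H/ACA snoRNAs of similar hosts by 33.4 percentage points (SD 7.85), in 8 of 8 libraries (exact test, adjusted p of 0.0234). The share past the midpoint was lower by 17.9 points (SD 6.17), again in 8 of 8 libraries (exact test, adjusted p of 0.0234). Without both second IgG libraries these differences were 31.1 and −15.2 points, in an exact test on fewer libraries (adjusted p of 0.0938 for both). Against the 47 C/D snoRNAs of translation genes the share at the 5′ end was 3.42 points higher (SD 3.92), in 7 of 8 libraries (exact test, adjusted p of 0.0313), and with only sites of at least 3 cDNAs 2.28 points higher (exact test, adjusted p of 0.195). It also missed the threshold without most of the single libraries, for example without the first dyskerin library (exact test, adjusted p of 0.0625). The share past the midpoint differed from them by 1.45 points (SD 4.15; exact test, adjusted p of 0.375). Against the 151 C/D snoRNAs of lncRNA genes the differences were 3.62 points (SD 6.69; exact test, adjusted p of 0.253) at the 5′ end and −3.03 points (SD 5.17; exact test, adjusted p of 0.199) past the midpoint.

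The shift between antibody and IgG libraries was also set against that of the other classes. Past the midpoint it was 12.2 percentage points in the members and 2.69 points in the H/ACA snoRNAs of similar hosts, and at the 5′ end −17.4 and −3.60 points. All 4 antibody libraries were apart from all 4 IgG libraries in both differences between the classes, with an exact permutation p of 0.0286, the smallest possible, and an adjusted p of 0.0857 over 6 comparisons. Against the C/D snoRNAs of translation genes the shifts differed by −3.82 and 4.74 points (exact permutation, adjusted p of 0.206 for both). In level, GAR1 over dyskerin was 3.32 for the share of the members, 2.91 and 3.01 for the other C/D classes and 5.42 for the H/ACA snoRNAs. GAR1 over its IgG was 1.91 for the members, 1.74 and 1.73 for the C/D snoRNAs of translation and of lncRNA genes and 1.13 for the H/ACA snoRNAs. Dyskerin over its IgG was 1.11, 0.956, 0.906 and 0.412 in the same order, where the low H/ACA ratio comes with a 23.8% share in the second dyskerin IgG library of 8183 cDNAs. These IgG means weigh the second libraries as much as the first, although the second GAR1 IgG library held only 72, 155 and 115 cDNAs of the C/D classes. The first GAR1 IgG library had 1.78%, 2.39% and 1.63%, beside GAR1 means of 2.35%, 3.34% and 2.34%. Against the first IgG library of either set alone, the members had the lowest ratio among the C/D classes, so the order of these classes is not settled.

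**Figure D5:**
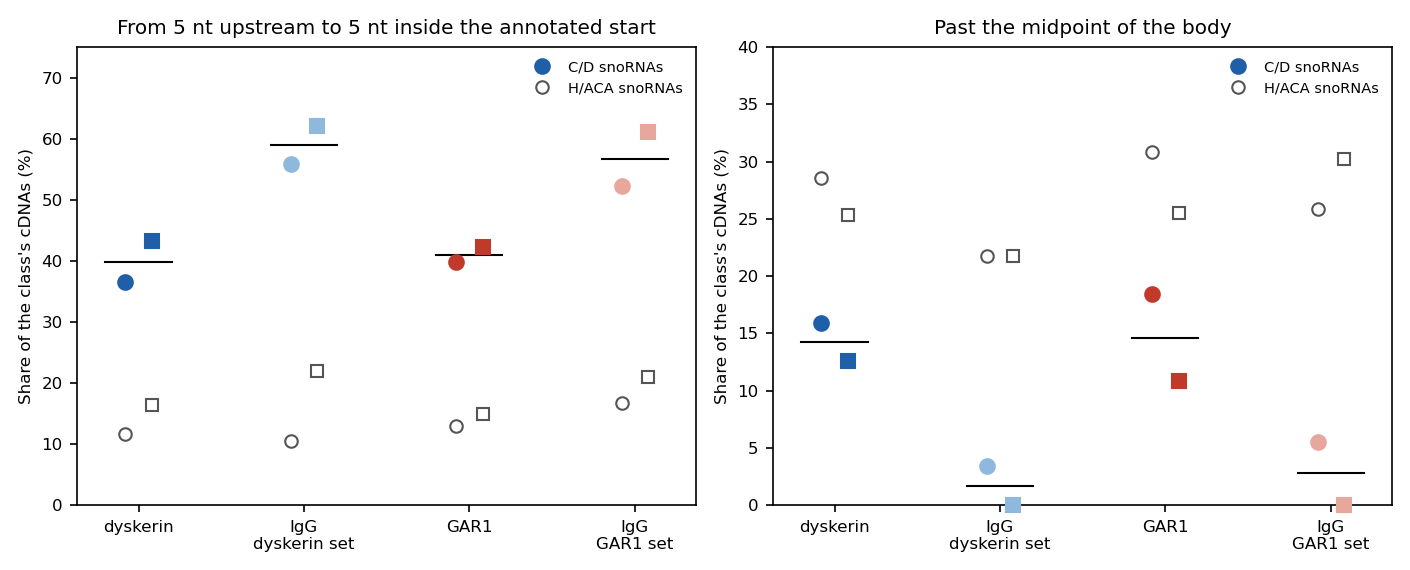
Share of cDNAs, in percent, at the annotated 5′ end and past the midpoint in each of the 8 libraries, for the members (filled) and the H/ACA snoRNAs of similar hosts (open), circles for replicate 1, squares for replicate 2 and a line at the mean of the members in each group. In the members the antibody libraries lie below IgG at the 5′ end and above IgG past the midpoint, and the H/ACA snoRNAs lie lower at the 5′ end in every library.

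The signal kept to the snoRNA bodies. In the 200 nt on either side of the members there were 874 and 1174 cDNAs in dyskerin, 117 and 0 in its IgG, 0 and 7 in GAR1, and 4 and 0 in the GAR1 IgG set. In dyskerin 98.1% and 98.4% of these lay in exons of the host. The share of cDNAs per nucleotide in the bodies, against bodies and flanks together, was therefore at least 97.4% in every library on pooled cDNAs. Its difference between antibody and IgG libraries was 0.516 points over the members (exact permutation p of 0.533) and changed sign on pooled cDNAs, to −0.325 points (exact permutation p of 0.914).

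Over the whole host genes, outside annotated snoRNAs, dyskerin had about as many cDNAs as in the members, with 1.11 and 0.751 member cDNAs per host cDNA. The first dyskerin IgG library had 0.799. In GAR1 the ratio was 30.8 and 28.8, and in its first IgG library 32.5. Without positions of snoRNAs that only RefSeq lists, which held 378 of 435 and 1259 of 1659 host cDNAs in GAR1, these ratios were 235, 119 and 155, and those in dyskerin 1.15 and 0.767. Of the 39 host genes tested outside their snoRNAs, edgeR called 9 higher in dyskerin than in GAR1 (37.2% of all genes tested). They were ACADM, AP1G1, CHD8, CKAP5, MAN1B1, NCL, PPAN, SF3B3 and TSR1. The median log2 fold change was 3.54 over the 39 host genes, against 5.54 over all genes. For NCL the log2 fold change was 7.78 (SE 2.99), with an adjusted p of 0.0491 in edgeR, while its snoRNAs SNORD20 and SNORD82 went the other way, with −5.62 (SE 1.85) and −5.15 (SE 2.12). No host gene passed in edgeR against IgG for dyskerin or GAR1.

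Of 22 genes listed for C/D assembly, release from introns and H/ACA proteins, 14 were tested. edgeR called 4 of the 14 higher in dyskerin than in GAR1 (37.2% of all genes tested) and 0 lower (4.36% of all genes tested). These were AQR, an intron-binding helicase, DKC1, which encodes dyskerin, and RUVBL1 and RUVBL2, ATPases of the assembly machinery, with log2 fold changes from 6.43 to 8.22 and an adjusted p in edgeR of 0.0491. The median over the 14 genes tested was 5.74, against 5.54 over all genes.

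The 19 members with fewer than 20 cDNAs in all libraries together were set against their boxes. Among the 10 members with 2 or more mismatches over both boxes, 8 had fewer than 20 cDNAs, and the median was 0. Among the 65 with at most 1 mismatch, 11 had fewer than 20 and 50 had at least 100, with a median of 910. Both boxes were intact in SNORD38C of DCP1A, SNORD58 of PRPF39, SNORD96B of AMMECR1 and SNORD13E of DENND4A, which were at 0 in every library, and in SNORD13P3 with 3 cDNAs and SNORD31B of NALF1 with 9. A further SNORD19 entry in GNL3 was at 0 as well, although its neighbours SNORD19B and SNORD19C were present. RNA levels were not analysed here, so absence of crosslinks and absence of the RNA cannot be told apart.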

How the data were processed

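iCLIP libraries from U2OS nuclei came as the authors' called crosslink sites per library and as clusters built from them. The deposited values are raw cDNA counts without any normalization. Per the labels and methods, the authors examined read quality with FastQC 0.11.9, trimmed adapters with Cutadapt (minimum length 10 nt), aligned reads to GRCh38 with STAR 2.7.0e and GENCODE 27, and ran iCount, which collapsed reads by barcode, kept up to 50 alignments per read and called sites per library (3 nt on either side, 100 permutations, false discovery rate 0.05). Weak RNAs can therefore be missing from single libraries, and copies can share reads.

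Sites were assigned by strand to GENCODE 44 genes, short RNAs first, then exons, then introns. Counts of cDNAs over a body and 5 nt upstream were summed. The quasi-likelihood F test of edgeR 4.0.16 (with limma 3.58.1, under R 4.3.3) was run on genes that reached 10 counts in 2 or more libraries, with TMM scaling, all 4 groups in 1 fit and Benjamini-Hochberg adjustment over all genes. DESeq2 1.42.0, total scaling, other filters, exact bodies, sites of at least 3 cDNAs, a replicate block and leaving out each library were alternatives. The scripts were tested on simulated data. Shares were compared by exact two-sided permutation tests over libraries. Sequences were read from the GRCh38 genome.

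The text names the 12 members of highest mean level, up to 6 called members in each direction between the antibodies with the largest fold change and groups that did not overlap, members of hosts with 3 or more members seen in at least 4 libraries, and the 3 lowest and 3 highest shares past the midpoint. Others named as exceptions, paralogs or examples were chosen after their values were seen. The members, the gene lists and the tests were chosen with earlier results of these data known, and the comparison with other snoRNA classes and the positions of the first GAR1 IgG library were added after the data were seen. Of the host genes called between the antibodies, 1 is not reported here.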

Additional observations from a re-analysis of the deposited data

How the results depend on the processing

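In the comparison of dyskerin with GAR1, edgeR called 17 members. The number was 0 with DESeq2 (all genes 0 of 6402 lower and 3605 higher) and 0 with exact annotated bodies (223 of 6450 lower and 3555 higher). It was 35 with a minimum of 50 counts (all genes 250 of 3565 lower and 3095 higher) and 1 with no filter on low counts (475 of 14373 lower). Scaling to the total gave 7 (174 of 6402 lower). Sites of at least 3 cDNAs gave 2, 1 higher and 1 lower (all genes 97 of 2896 lower and 2397 higher). With the replicate number as a block it was 0 (all genes 54 of 6402 lower and 0 higher). Over all genes tested, the correlations of deviations between groups ran from −0.08 to 0.10. Low values over all genes do not exclude that replicate numbers pair the samples, so this was left undecided. Leaving out 1 library gave 0 to 38 calls. Among alternatives on all 8 libraries, dyskerin against IgG and GAR1 against IgG gave 0 member calls throughout. All genes did not always stay at 0. With a minimum of 50 counts, dyskerin against IgG called 793 of 3565 genes higher and 8 lower, but 0 of 49 members. GAR1 against IgG in that setting called 0 genes higher and 25 lower, and the median log2 fold change of the 49 members was 0.88. DESeq2 turned the median log2 fold change of dyskerin over GAR1 to 0.27. It also turned SNORD20 to 0.044, SNORD57 to 0.48, SNORD14C to 0.86, SNORD14E to 0.75, SNORD89 to 0.20, SNORD82 to 0.59, SNORD56 to 0.059, SNORD63 to 0.26, SNORD110 to 0.30, SNORD53 to 0.22, SNORD53B to 0.27, SNORD67 to 0.40, SNORD121B to 0.032, SNORD84 to 0.10, SNORD62B to 0.22 and SNORD62A to 0.21, and the cause was not tested.

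On pooled cDNAs of all 8 libraries the antibody minus IgG differences passed at −17.4 points for the 5′ end, 12.2 past the midpoint, 0.328 for the last 20 nt and 9.07 for uridine, and with positions of the first GAR1 IgG library at −16.5, 6.85 and 8.03 for the 5′ end, the midpoint and uridine. Both settings use 4 IgG libraries in place of 2. Leaving out 1 library gave −25.2 to −8.67, 8.23 to 10.6, 0.0999 to 0.179 and 4.13 to 8.73 points. For bodies against flanks it gave −0.504 to 1.54, negative without the first dyskerin IgG library, and −0.325 on pooled cDNAs. The share of peak cDNAs in members gave 0.301 to 0.889 points and did not pass in any setting run. The second IgG libraries, with 50 and 72 member cDNAs, limit every comparison with IgG.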

Other observations

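ATP5F1B and TNPO2 each hold a C/D snoRNA that RefSeq lists and GENCODE 44 does not, SNORD59B and SNORD135, whose cDNAs were counted with the host. At the position of SNORD59B there were 181 and 160 cDNAs in dyskerin, 227 and 717 in GAR1 and 50 in the first GAR1 IgG library, which were all of the ATP5F1B cDNAs in each of these libraries. At SNORD135 there were 168 of the 253 TNPO2 cDNAs in the first dyskerin library, 171 of 278 in the second, 151 of 153 and 542 of 542 in GAR1, and 78 of 78 in the first GAR1 IgG library. Without such positions the GAR1 libraries had 235 and 119 member cDNAs per host cDNA.

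Among the 33 members with at least 100 cDNAs in every antibody library, the share past the midpoint was higher in the first than in the second dyskerin library for 24, in the first than in the second GAR1 library for 27, and in both for 23. SNORD57 was one of them, with 9.72% against 0.161% in dyskerin and 12.5% against 0.415% in GAR1. The labels do not say whether libraries with the same replicate number belong together, and what sets these libraries apart was not tested.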
